A study of Mus musculus with 860 samples.

Results

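The collagens, the laminins and their basement membrane partners were described in single cells of the mouse aorta-gonad-mesonephros region (AGM), the embryonic site where haematopoietic stem cells first arise from the wall of the dorsal aorta. The members were taken by name: every protein-coding gene whose symbol is a collagen chain or a laminin alpha, beta or gamma chain, together with Nid1, Nid2, Hspg2, Agrn, Sparc, Sparcl1 and Fn1. They came to 62 of the 46078 genes in the count table, and each of the 62 had at least 1 read in the kept cells. The rule itself uses no measured value, although it was set with earlier results of these data known.

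Single cells were sorted from pooled AGMs of CD1/Gfi1:tomato embryos at E11.5 and E10.5, after digestion with collagenase and dispase, and were read with Smart-Seq2, which sequences full-length cDNA without molecular identifiers. All embryos carried the Gfi1:tomato reporter, and no agent was given. Every gate took CD31+ cells. Haemogenic endothelium (HE) was sorted as cKIT- and GFI1+, and intra-aortic haematopoietic cluster cells (IAHC) as cKIT+, with the reporter on (GFI1+ IAHC) or off (GFI1- IAHC). Of 860 deposited cells, the 775 that the authors kept were used. At E11.5, HE made up 22.2% of these, GFI1+ IAHC 31% (240 cells) and GFI1- IAHC 17.4%, and at E10.5, HE made up 14.1% and GFI1+ IAHC 15%. The other 3 were E10.5 GFI1- IAHC cells, which entered no comparison. The kept cells came from 4 batches labelled GL53, GL58, GL69 and GL78, and the labels do not say what a batch was. Plates held cells of 1 stage, so stage and plate cannot be told apart. No animal is named for any cell, which leaves 1 sample per population, so no p-value is given. The spread between batches, which may be technical, is the error shown.

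Basement membranes are thin sheets of matrix under epithelia and most endothelia. Laminins are trimers of an alpha, a beta and a gamma chain that assemble first on the cell surface and bind integrins and dystroglycan. A second network, of type IV collagen, is tied to the laminin layer by nidogens and by the heparan sulfate proteoglycans perlecan (Hspg2) and agrin. Fibrillar collagens form the banded fibres of connective tissue and are made mainly by mesenchymal cells. Laminin alpha 4 and laminin alpha 5 are the main alpha chains of vascular basement membranes, and fibronectin surrounds the early embryonic aorta.

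Promoters are shown for members on which the results turn. Sequences are from RefSeq on GRCm38.p6, read 5′ to 3′, and capitals mark the GC box, the letters GGGCGG on either strand. Col4a1 and Col4a2, which encode the paired alpha chains of the common type IV collagen trimer, start on opposite strands and overlap by 22 bases: Col4a1 starts at 11312826 on the minus strand and Col4a2 at 11312805 on the plus strand of chromosome 8, so chr8:11312805-11312826 (plus strand, in the first exons of both genes) is the stretch between the starts. Lama5 (laminin alpha 5, chr2:180225860-180226109) and Agrn (agrin, chr4:156197489-156197738) were among the members highest in cluster 4, and the 250 bases before each start, on the minus strand, are given.
between Col4a1 and Col4a2: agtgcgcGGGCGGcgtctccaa
Lama5 promoter: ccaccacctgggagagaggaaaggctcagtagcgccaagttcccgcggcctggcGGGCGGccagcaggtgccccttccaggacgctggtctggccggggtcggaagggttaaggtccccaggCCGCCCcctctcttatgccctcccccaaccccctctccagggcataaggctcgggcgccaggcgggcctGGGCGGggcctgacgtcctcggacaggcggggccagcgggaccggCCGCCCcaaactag
Agrn promoter: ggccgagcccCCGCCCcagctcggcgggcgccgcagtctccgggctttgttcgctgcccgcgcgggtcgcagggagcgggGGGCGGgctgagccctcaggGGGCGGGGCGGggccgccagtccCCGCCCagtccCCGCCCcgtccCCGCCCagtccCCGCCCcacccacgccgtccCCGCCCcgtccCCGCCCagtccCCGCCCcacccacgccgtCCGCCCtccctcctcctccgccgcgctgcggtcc
The stretch between the type IV starts held 1 GC box, the Lama5 window 4 and the Agrn window 12. Over 44 members with a RefSeq promoter window of 250 bases before to 50 after the start, 28 (63.6%) held a GC box on either strand, against 35.9% of all 27025 promoters. The CCAAT box was found in 14 members (31.8%, against 37.9% of all promoters), the TATA box (TATAAA) in 5 (11.4%, against 14.2%) and the RUNX letters TGTGGT in 3, which were Col17a1, Col8a1 and Sparc (6.82%, against 16.9%). Both strands were searched, none of the motifs contains another, and matches that overlap, as in the Agrn window, were each counted. A match describes these letters only.

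Kept cells had 134284 to 2296823 counts, with a median of 727732. The labels were checked by textbook markers. Levels are given as CPM, the summed counts of a gene scaled to a total of 1000000 counts. All 10 endothelial markers reached 10 CPM in each of the 5 populations, and that list summed to between 4209 and 10296 CPM. Kit was at 94.9 CPM in E11.5 HE, which was sorted as cKIT-, against 199.1 CPM in E11.5 GFI1+ IAHC, and at 81.9 CPM in E10.5 HE, against 184.02 CPM in E10.5 GFI1+ IAHC. Gfi1 itself was at 0.372 CPM in E11.5 HE, 6.52 CPM in E11.5 GFI1+ IAHC, 11 CPM in E10.5 HE and 26.9 CPM in E10.5 GFI1+ IAHC, and had 0 reads in the GFI1- IAHC cells. The sum of the 11 haematopoietic markers, with Kit and Gfi1 among them, went the other way, although most of its markers did not. It was 1696.5 CPM in E11.5 HE, against 1016 CPM in E11.5 GFI1+ IAHC. There Cd34, which took most of the sum, was at 1436.5 CPM in HE, against 586.5 CPM in GFI1+ IAHC. Itga2b was at 100.2 CPM, against 22.9 CPM, and every other marker was lower in HE. At E10.5 the list summed to 1684.5 CPM in HE, against 1187.5 CPM in GFI1+ IAHC. Cd34 (820.8 against 646.1 CPM), Itga2b (589.8 against 34.7 CPM) and Gfi1b (79 against 18.4 CPM) were higher in HE, and the other markers lower. Some cells went against their gate. Of the 36 cells of cluster 6, 32 were sorted as E11.5 GFI1- IAHC, 31 of them in GL53. In that cluster Cdh5 (VE-cadherin) was at 0.0908 CPM and Pecam1 (CD31) at 2.77 CPM, while all 13 mesenchymal markers reached 10 CPM and summed to 4230.2 CPM. Cluster 9 (12 cells, 11 of them E10.5 HE) had Pf4, a platelet factor, at 16230.3 CPM. Clusters 8 and 10 also carried markers of other lineages. In cluster 8 (25 cells, 15 of them E11.5 GFI1+ IAHC) all 9 primordial germ cell markers reached 10 CPM and summed to 5513.2 CPM. In cluster 10 (11 cells, 9 of them E11.5 GFI1- IAHC) all 10 macrophage markers did, and summed to 9901.4 CPM. Results of the members that rest on these cells are given with and without them, and those of lists of other genes with them only.

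Counts of the members made up 1.37% of all counts in E11.5 HE, 0.738% in E11.5 GFI1+ IAHC, 0.788% in E11.5 GFI1- IAHC, 0.802% in E10.5 HE and 0.433% in E10.5 GFI1+ IAHC. In each stage HE gave a larger share of its reads to these genes than GFI1+ IAHC, and each of these GFI1+ populations a larger one at E11.5 than at E10.5. Of the 62 members, 40 reached 10 CPM in at least 1 of the 5 populations. Since counts were summed over cells, fewer cells with a gene and less RNA of it per cell cannot be told apart from these levels alone. Counting error was small: for members at 10 CPM or more, the 95% Poisson interval of a population reached at most 4.73% to 6.86% to either side of the value, and it covers counting error only.

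The 11 Louvain clusters of the authors, built from all genes with the members among them, differed far more than the sort gates did, and their levels are given as a description. Members took 1.98% of counts in cluster 4, which the authors call HSC-HE and which held 42 E11.5 HE and 27 E10.5 HE cells among its 76. They took 0.235% in cluster 2, the cluster called HSC (14.1% of kept cells). Clusters 0, 1, 3 and 5, which carry endothelial markers, lay between them at 0.808%, 1.13%, 0.709% and 0.602%. Cluster 6 was at 1.13% and cluster 7 at 0.58%, and clusters 8, 9 and 10 were at 0.146%, 0.0736% and 0.0172%. Per cell, the median share was 1.83% in cluster 4 (quartiles 1.53% and 2.34%) and 0.0667% in cluster 2 (quartiles 0.0188% and 0.321%). The quartiles of these clusters did not overlap. Of the 50 members that reached 10 CPM in some cluster, 24 were highest in cluster 6, 15 in cluster 4, 5 in cluster 1, 2 in cluster 0, 2 in cluster 8, and 1 each in clusters 9 and 10. The share of all genes highest in each cluster was not taken, so these counts cannot be set against other genes.

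**Figure D1:**
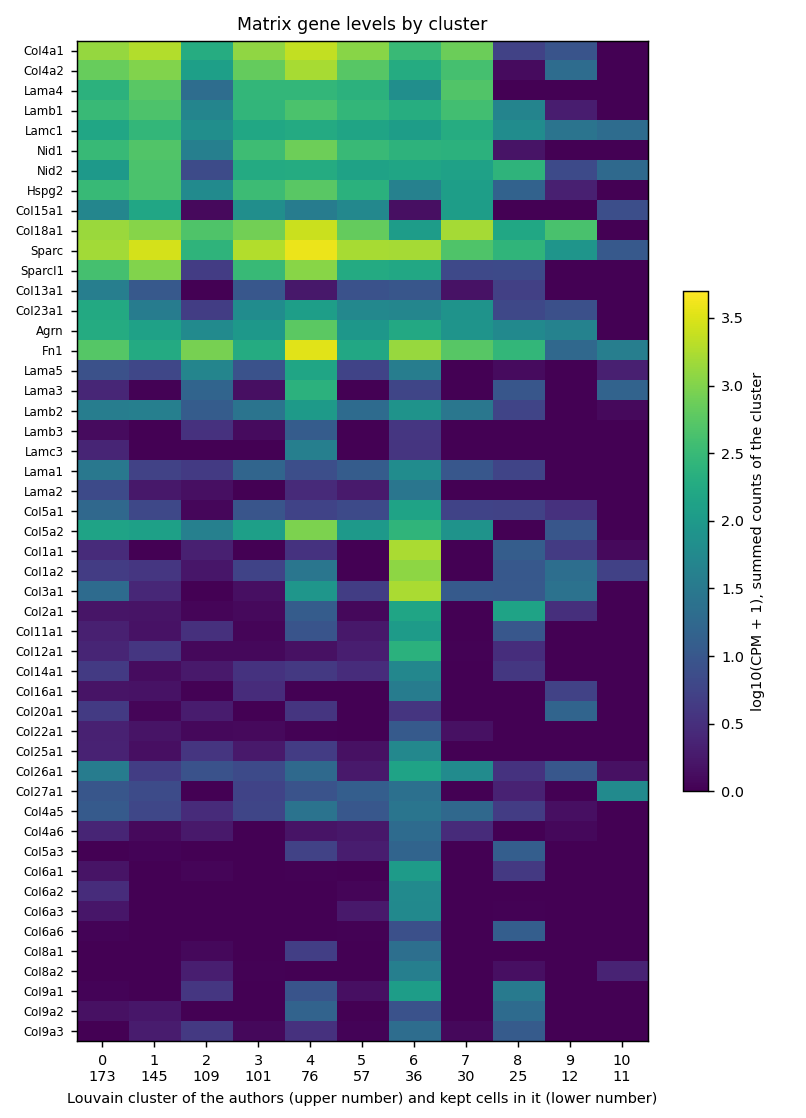
Summed level of each member that reached 10 CPM in at least 1 Louvain cluster (rows) in clusters 0 to 10 (columns, number of kept cells under each), coloured by log10(CPM + 1). Basement membrane genes such as Col4a1, Lama4 and Nid1 are bright across clusters 0, 1, 3, 4, 5 and 7 and dim in cluster 2, Lama3, Lama5 and Fn1 are brightest in cluster 4, and fibrillar and beaded-filament collagens are bright in cluster 6.

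To set the clusters against each other, the CPM of a cluster and of other clusters were compared within each batch that held at least 10 cells of both, as a log2 ratio with 1 CPM added to each side. A difference was called where each batch used gave 2-fold or more, all to the same side, and the higher level reached 10 CPM. A value in parentheses after a pair of levels is their log2 ratio, with the SD where there were several batches. In cluster 4 over clusters 0, 1, 3 and 5 (GL53 and GL78), 12 of the 29 members measured at 10 CPM or more were called higher and 2 lower, beside 7.96% of 9982 genes called higher and 4.85% called lower. The 12 were Agrn, Col1a2, Col3a1, Col4a5, Col5a2, Col9a2, Fn1, Lama3, Lama5, Lamb2, Lamb3 and Lamc3, and the 2 were Col13a1 and Col15a1. Lama3 was at 387.7 and 156.7 CPM in cluster 4 (GL53 and GL78), against 0.364 and 0.733 CPM in the 4 other clusters. Fn1 was at 3606 and 3583 CPM in cluster 4, against 386.1 and 277.7 CPM in the others. Their log2 ratios were 7.33 ± 1.16 and 3.45 ± 0.33 (SD over batches), and the batches did not overlap. In cluster 2 over clusters 0, 1, 3 and 5, 2 of 23 measured members were called higher and 17 lower, beside 10.8% of 10307 genes called higher and 9.74% called lower. The 2 were Lama3 and Lama5. Lama5 was at 33 and 55.2 CPM in cluster 2, against 6.12 and 5.71 CPM in clusters 0, 1, 3 and 5, a log2 ratio of 2.66 ± 0.57. Among the 17, Sparcl1 was at 3.69 and 4.38 CPM in cluster 2, against 757.3 and 379.8 CPM in those clusters (-6.74 ± 0.84). Col4a1 was at 135.2 and 235.9 CPM in cluster 2, against 1690.1 and 1303 CPM in the others (-3.05 ± 0.83), and Lama4 at 0 and 26.9 CPM in cluster 2, against 418.9 and 287.4 CPM in the others. The 0 for Lama4 in GL53 was at least 2457-fold lower, counted against a floor of 3 reads in that cluster and batch. This limit covers counting of reads only and leaves out the sampling of cells, and the GL78 levels lay far closer together. In cluster 6 over clusters 0 to 5, which GL53 alone could give, 25 of 45 measured members were called higher and 9 lower, beside 17.1% of 10986 genes called higher and 12.3% called lower. Col1a1 was at 1970.0 CPM in cluster 6, against 1.16 CPM in clusters 0 to 5, and Col18a1 was among the 9 at 83.7 CPM in cluster 6, against 1307 CPM in the others. The median log2 ratio over the measured members was 0.99 for cluster 4, -3.05 for cluster 2 and 2.25 for cluster 6, beside -0.01, 0.14 and 0.13 over all genes measured.

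Of the 6 type IV collagens, which form the mesh of the basement membrane, Col4a1 and Col4a2 carried nearly all the reads. Col4a1 was at 2042 CPM in E11.5 HE, 1184 CPM in E11.5 GFI1+ IAHC and 808.2 CPM in E11.5 GFI1- IAHC. E10.5 levels of Col4a1 were 1101 CPM in HE and 614.97 CPM in GFI1+ IAHC. Col4a2 was at 1174 CPM in E11.5 HE, 632.7 CPM in E11.5 GFI1+ IAHC and 393.4 CPM in E11.5 GFI1- IAHC. E10.5 levels of Col4a2 were 741.1 CPM in HE and 346.7 CPM in GFI1+ IAHC. In GL53, GL58 and GL78 at E11.5, Col4a1 was at 2032, 1822 and 2180.4 CPM in HE, against 1242, 1118 and 1137 CPM in GFI1+ IAHC. Col4a2 was at 1132, 1190.4 and 1267 CPM in HE, against 642.7, 531.3 and 656.5 CPM in GFI1+ IAHC. Every HE batch was above every GFI1+ IAHC batch for both genes, with log2 ratios of 0.78 ± 0.13 for Col4a1 and 0.98 ± 0.17 for Col4a2, each short of 2-fold in at least 1 batch. At E10.5, in GL78, Col4a1 was at 1148 CPM in HE, against 626.5 CPM in GFI1+ IAHC (0.87). Col4a2 was at 791.95 CPM in HE, against 352.97 CPM in GFI1+ IAHC (1.16, called). In GFI1- IAHC, GL53 and GL78 had 754.1 and 908.97 CPM of Col4a1, each below all 3 GFI1+ IAHC batches. By stage, the HE ratios in GL58 and GL78 were 1.03 and 0.92 for Col4a1 and 1.20 and 0.68 for Col4a2, and those of GFI1+ IAHC in GL78 were 0.86 and 0.89. Per length of exon, Col4a1 was at 273.6 and Col4a2 at 177.3 RPKM (CPM per 1000 bases of exon, computed here) in E11.5 HE. Among E11.5 cells, Col4a1 was read in 95.3% of HE, 81.2% of GFI1+ IAHC and 78.5% of GFI1- IAHC.

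The levels of the pair were correlated across cells. Pearson's r of Col4a1 and Col4a2 on the log2(CPM + 1) scale was 0.96 over the E11.5 HE cells, 0.95 over the 240 E11.5 GFI1+ IAHC cells and 0.93 over the E11.5 GFI1- IAHC cells. It was 0.92 over the E10.5 HE cells (18 in GL58 and 91 in GL78) and 0.89 over the E10.5 GFI1+ IAHC cells (29 in GL69 and 87 in GL78). Cells without reads of either gene enter these values. Spearman's rank correlation of the pair was 0.77 in E11.5 HE, 0.82 in E11.5 GFI1+ IAHC and 0.89 in E11.5 GFI1- IAHC. At E10.5 it was 0.93 in HE and 0.82 in GFI1+ IAHC. Of the E11.5 HE cells, 0 had reads of Col4a1 alone, 0 of Col4a2 alone and 8 of neither, and every other cell had both. These points share plates and depth, and no test was made of them. Laminin beta 1 and gamma 1, also parts of 1 trimer, had an r of 0.16 over the same E11.5 HE cells. Their r was 0.53 in E11.5 GFI1+ IAHC and 0.38 in E11.5 GFI1- IAHC, and 0.60 in E10.5 HE and 0.36 in E10.5 GFI1+ IAHC. In clusters 0, 1, 3, 4, 5 and 7, Col4a1 ranged between 730.5 CPM in cluster 7 and 2318 CPM in cluster 4. It was at 192.3 CPM in cluster 2, 320.5 in cluster 6, 4.34 in cluster 8 and 8.15 in cluster 9, with 0 reads in cluster 10. Col4a2 followed it, from 411.4 CPM in cluster 7 to 1639 CPM in cluster 4, with 120.2 CPM in cluster 2. The minor chains stayed low. Col4a5 was at 16.4 CPM in E11.5 HE, 8 CPM in E11.5 GFI1+ IAHC and 14.3 CPM in E11.5 GFI1- IAHC. E10.5 levels of Col4a5 were 5.08 CPM in HE and 1.33 CPM in GFI1+ IAHC. Col4a6 reached 3.45 CPM in E11.5 GFI1- IAHC and 18.6 CPM in cluster 6, while Col4a3 and Col4a4 stayed at or under 0.591 CPM in every cluster.

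The laminin alpha chain sets which receptors a laminin binds, and the 5 alpha chains differed most between cells. Lama4 was at 432.1 CPM in E11.5 HE, 298.9 CPM in E11.5 GFI1+ IAHC and 236.8 CPM in E11.5 GFI1- IAHC. E10.5 levels of Lama4 were 170.9 CPM in HE and 132.8 CPM in GFI1+ IAHC. At E11.5, in GL53, GL58 and GL78, it was at 449.4, 379.6 and 416.9 CPM in HE, against 297.04, 389.2 and 269.05 CPM in GFI1+ IAHC. The GL58 batches were level, so HE and GFI1+ IAHC overlapped (0.40 ± 0.37), and the E10.5 ratio in GL78 was 0.40. By stage, Lama4 was at 379.6 and 416.9 CPM in E11.5 HE, against 183.8 and 167.9 CPM in E10.5 HE in GL58 and GL78, and at 269.05 CPM in E11.5 GFI1+ IAHC, against 126.9 CPM in E10.5 GFI1+ IAHC in GL78. It was called higher at E11.5 in both populations, at 1.17 ± 0.19 in HE and 1.08 in GFI1+ IAHC, values close to 2-fold. The HE call was lost without clusters 6 to 10 and without the cell with most reads of the gene, and the GFI1+ IAHC call with TMM or median-of-ratios factors, after thinning and without clusters 6 to 10. Lama5 ran the other way by stage in GFI1+ IAHC. It was at 25.3 CPM in E11.5 HE, 7.66 CPM in E11.5 GFI1+ IAHC and 11.6 CPM in E11.5 GFI1- IAHC. E10.5 levels of Lama5 were 68.8 CPM in HE and 29.5 CPM in GFI1+ IAHC. In GL78 alone it was at 3.27 CPM in E11.5 GFI1+ IAHC, against 35.9 CPM in E10.5 GFI1+ IAHC (-3.11, called lower). In HE it was at 27.5 and 10.4 CPM in E11.5 HE, against 21.5 and 79.7 CPM in E10.5 HE in GL58 and GL78, so the batches differed in direction and the difference was not called. Lama5 was called higher in HE at both stages, and the E11.5 call was lost with 5 CPM added, at 50 CPM or more and without the cell with most reads of the gene. In GL53, GL58 and GL78 at E11.5 it was at 30.9, 27.5 and 10.4 CPM in HE, against 12.4, 3.59 and 3.27 CPM in GFI1+ IAHC (1.76 ± 0.76), and at E10.5 in GL78 at 79.7 CPM in HE, against 35.9 CPM in GFI1+ IAHC (1.13).

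Lama3, best known as an epithelial laminin chain, was the member with the largest HE difference. It was at 71 CPM in E11.5 HE, 4.77 CPM in E11.5 GFI1+ IAHC and 4.61 CPM in E11.5 GFI1- IAHC. E10.5 levels of Lama3 were 42 CPM in HE and 6.22 CPM in GFI1+ IAHC. In GL53, GL58 and GL78 at E11.5 it was at 99.7, 31.3 and 21.1 CPM in HE, against 7.09, 5.84 and 1.57 CPM in GFI1+ IAHC, with no overlap and a log2 ratio of 2.99 ± 0.71. In GL78 at E10.5 it was at 50.7 CPM in HE, against 8.69 CPM in GFI1+ IAHC (2.41). The E10.5 HE value rested on 1 batch, since GL58 had 4.09 CPM. Cluster 4 had most of it. Lama3 was at 239.4 CPM in cluster 4, 14.5 in cluster 2, 14.2 in cluster 10, 8.62 in cluster 8, 4.91 in cluster 6 and at or under 1.51 CPM in clusters 0, 1, 3, 5, 7 and 9. At a level of at least 10 CPM it was found in 65 of the 76 cells of cluster 4, in 15 cells (13.8%) of cluster 2 and in 3 cells (1.73%) of cluster 0. After each cell was thinned to 50000 counts, a read of Lama3 remained in 84.2% of cluster 4 cells, against 89.5% before thinning, and in 2.31% of cluster 0 cells, against 2.89%. Lama1, the main alpha chain of the earliest embryonic basement membranes, was at 5.87 CPM in E11.5 HE, 10.1 CPM in E11.5 GFI1+ IAHC and 25 CPM in E11.5 GFI1- IAHC. E10.5 levels of Lama1 were 13.6 CPM in HE and 23.4 CPM in GFI1+ IAHC. It was called lower in HE at E10.5 in GL78, at 11.7 CPM in HE, against 24.6 CPM in GFI1+ IAHC (-1.01), a call lost with 5 CPM added, with median-of-ratios factors, after thinning and without clusters 6 to 10. It was also called lower at E11.5 in GFI1+ IAHC, at 5.28 CPM in E11.5 GFI1+ IAHC, against 24.6 CPM in E10.5 GFI1+ IAHC (-2.03). Lama2, the laminin chain of muscle and nerve, was at 1.06 CPM in E11.5 HE, 2 CPM in E11.5 GFI1+ IAHC and 12.9 CPM in E11.5 GFI1- IAHC. E10.5 levels of Lama2 were 0.688 CPM in HE and 0.341 CPM in GFI1+ IAHC. In GL53 and GL78 it was at 3.62 and 0.72 CPM in GFI1+ IAHC, against 17.7 and 3.83 CPM in GFI1- IAHC (-1.75 ± 0.37, called lower in GFI1+ IAHC), and cluster 6 had it at 27.2 CPM. This call was lost without the cell with most reads of the gene, without GL53, without clusters 6 to 10 and in clusters 0, 1, 3 and 5. It was also lost with 5 CPM added, at 50 CPM or more, after thinning and with all deposited cells.

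Per length of exon, Lama4 made up 98% of the laminin alpha reads in cluster 1, 97.8% in cluster 7, 92.5% in cluster 5, 90.9% in cluster 3 and 82.4% in cluster 0, where Lama1 had 12.7%. Cluster 4 was mixed, with 39.7% Lama4, 37.4% Lama3 and 21.6% Lama5. With lengths of the longest transcript in place of all exons Lama4 had 56.4%. Cluster 2 had Lama5 in front at 55.1%, with 22.1% Lama4 and 17.9% Lama3, and the longest transcript gave Lama5 44.9%. Cluster 6 had 37.4% Lama1, 31.9% Lama4, 18.5% Lama5 and 9.57% Lama2. By population, Lama4 took 79% in E11.5 HE, 91.6% in E11.5 GFI1+ IAHC, 80.3% in E11.5 GFI1- IAHC, and 55.4% in E10.5 HE and 66.2% in E10.5 GFI1+ IAHC. Lama5 took 4.91% in E11.5 HE and 23.6% in E10.5 HE. In single cells at 10 CPM or more, 44 cells (40.4%) of cluster 2 had Lama5, and 27 of those had it without Lama4. In cluster 0, 89.6% of cells had Lama4 and 20 cells had Lama5, all of them with Lama4. In cluster 4, 57 cells had Lama5, 57 had Lama4 and 43 had both, and 51 cells had Lama3 with Lama5. Across cells of a population, Pearson's r of Lama4 and Lama5 on the log2 scale lay between -0.20 in E10.5 GFI1+ IAHC and 0.01 in E10.5 HE. That of Lama3 and Lama5 was 0.60 in E11.5 HE and 0.73 in E10.5 HE, over the same cells as for the type IV pair. These are descriptions of cells that share plates and depth.

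**Figure D2:**
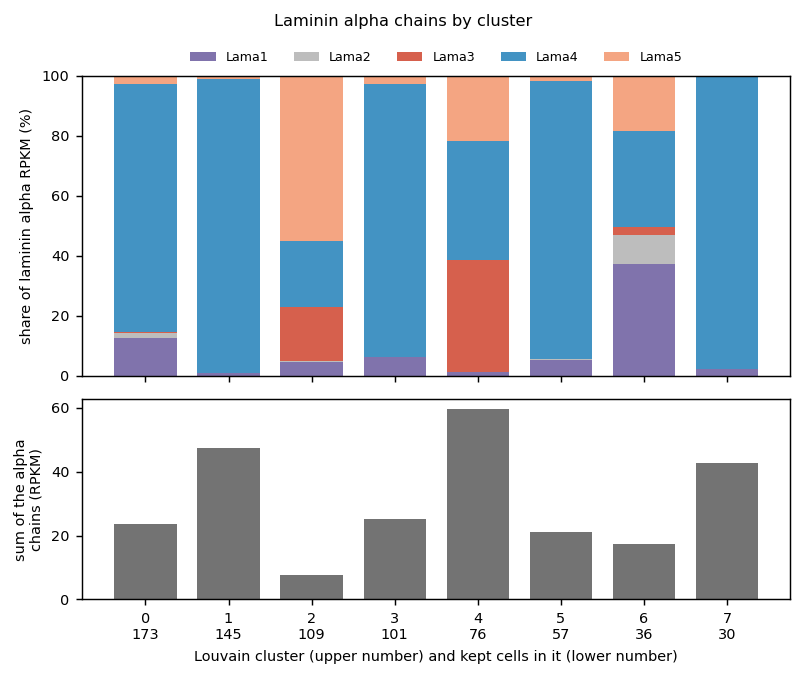
Share of the laminin alpha reads per kilobase of exon (y axis, percent) taken by each of the 5 alpha chains in Louvain clusters 0 to 7 (x axis, 1 stacked bar per cluster), with the summed level of the 5 chains in RPKM in the lower panel. Lama4 fills 82.4% to 98% of the bar in clusters 0, 1, 3, 5 and 7, and the bars of clusters 4, 2 and 6 are mixed, and the sum is lowest in cluster 2 and highest in cluster 4.

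The common beta and gamma chains differed less than the alpha chains. Lamb1 was at 436.1 CPM in E11.5 HE, 291.03 CPM in E11.5 GFI1+ IAHC and 282.1 CPM in E11.5 GFI1- IAHC. E10.5 levels of Lamb1 were 249.6 CPM in HE and 178.8 CPM in GFI1+ IAHC. Lamc1, the gamma chain of nearly all laminins, was at 239.4 CPM in E11.5 HE, 164.7 CPM in E11.5 GFI1+ IAHC and 151.7 CPM in E11.5 GFI1- IAHC. E10.5 levels of Lamc1 were 128.9 CPM in HE and 107.04 CPM in GFI1+ IAHC. In GL53, GL58 and GL78 at E11.5, Lamb1 was at 471.7, 421.3 and 356.7 CPM in HE, against 294.7, 331.2 and 272.3 CPM in GFI1+ IAHC (0.47 ± 0.18). Lamc1 was at 257.8, 221.01 and 203.9 CPM in HE, against 170.98, 182.4 and 150.7 CPM in GFI1+ IAHC (0.43 ± 0.16). In each batch HE was above GFI1+ IAHC for both genes, by less than 2-fold. At E10.5 in GL78 the log2 ratios were 0.59 for Lamb1 and 0.26 for Lamc1, and GFI1+ over GFI1- IAHC gave -0.03 ± 0.25 and 0.10 ± 0.05. E11.5 over E10.5 gave 0.77 ± 0.45 and 0.75 ± 0.16 in HE and 0.65 and 0.46 in GFI1+ IAHC. Lamc1 differed least from the endothelial clusters among the laminin chains called in cluster 2, at 66.4 CPM, against 154.2 CPM in cluster 0 and 179.6 CPM in cluster 4. Lamb1 was at 47.3 CPM in cluster 2, 320.8 CPM in cluster 0 and 450.3 CPM in cluster 4. Lamb2, the beta chain of mature vascular laminins, was at 51.9 CPM in E11.5 HE, 33.9 CPM in E11.5 GFI1+ IAHC and 40.9 CPM in E11.5 GFI1- IAHC. E10.5 levels of Lamb2 were 34.3 CPM in HE and 17.7 CPM in GFI1+ IAHC. It was called higher in E10.5 HE, at 39.3 CPM in HE, against 17.2 CPM in GFI1+ IAHC in GL78 (1.15), and in E11.5 GFI1+ IAHC, at 36.6 CPM in E11.5 GFI1+ IAHC, against 17.2 CPM in E10.5 GFI1+ IAHC (1.05). At E11.5 its batches disagreed, at 51.8, 87.6 and 33.5 CPM in HE, against 35.6, 20.8 and 36.6 CPM in GFI1+ IAHC in GL53, GL58 and GL78 (0.81 ± 1.10). Lamb3, the partner of Lama3 in epithelial laminin, reached 11.1 CPM in cluster 4 and at most 3.85 CPM in a population, and Lamc3 reached 38.9 CPM in cluster 4 and 13.1 CPM in E11.5 HE.

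The nidogens join the laminin and type IV collagen layers. Nid1 was at 541.1 CPM in E11.5 HE, 280.9 CPM in E11.5 GFI1+ IAHC and 272.5 CPM in E11.5 GFI1- IAHC. E10.5 levels of Nid1 were 361.9 CPM in HE and 190.5 CPM in GFI1+ IAHC. At E11.5 it was at 580.7, 438.1 and 497.6 CPM in HE, against 306.4, 232.7 and 266.96 CPM in GFI1+ IAHC in GL53, GL58 and GL78, a log2 ratio of 0.91 ± 0.01, the smallest spread between batches among the named members. At E10.5 in GL78 it was at 369.7 CPM in HE, against 184.03 CPM in GFI1+ IAHC (1.00, called). By stage the ratios of Nid1 were 0.42 ± 0.01 in HE and 0.53 in GFI1+ IAHC, and it was not called. Nid2, which was highest in cluster 1, was at 348.1 CPM in E11.5 HE, 162.96 CPM in E11.5 GFI1+ IAHC and 137.01 CPM in E11.5 GFI1- IAHC. E10.5 levels of Nid2 were 145.6 CPM in HE and 89 CPM in GFI1+ IAHC. In GL58 and GL78 it was at 390.3 and 396.9 CPM in E11.5 HE, against 151.1 and 144.4 CPM in E10.5 HE and was called higher at E11.5 (1.41 ± 0.06), while in GFI1+ IAHC the ratio was 0.87. At E11.5 Nid2 was at 319.3, 390.3 and 396.9 CPM in HE, against 139.6, 219.97 and 171.2 CPM in GFI1+ IAHC in GL53, GL58 and GL78 (1.07 ± 0.22), with no overlap and 1 batch under 2-fold. At E10.5 in GL78 Nid2 was at 144.4 CPM in HE, against 93.1 CPM in GFI1+ IAHC (0.63). Cluster 1 had 455.04 CPM of Nid2, cluster 8 249.9, cluster 4 184.97, cluster 3 184.5 and cluster 2 6.1 CPM. Nid1 was highest in cluster 4 at 751.1 CPM and was at 38.2 CPM in cluster 2.

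Perlecan and agrin are the heparan sulfate proteoglycans of these membranes. Hspg2 (perlecan) was at 447.7 CPM in E11.5 HE, 273.8 CPM in E11.5 GFI1+ IAHC and 191.1 CPM in E11.5 GFI1- IAHC. E10.5 levels of Hspg2 were 304.96 CPM in HE and 176.6 CPM in GFI1+ IAHC. At E11.5 it was at 426.7, 364.4 and 542.7 CPM in HE, against 255.5, 249.3 and 304.9 CPM in GFI1+ IAHC in GL53, GL58 and GL78, each above GFI1+ IAHC by less than 2-fold (0.70 ± 0.15). The E10.5 ratio of Hspg2 was 0.81, and its stage ratios were 0.78 ± 0.07 in HE and 0.70 in GFI1+ IAHC. Agrn (agrin), for which the window of 12 GC boxes is printed with the promoters, was at 283.3 CPM in E11.5 HE, 168.1 CPM in E11.5 GFI1+ IAHC and 134.2 CPM in E11.5 GFI1- IAHC. E10.5 levels of Agrn were 141.7 CPM in HE and 49.8 CPM in GFI1+ IAHC. In GL78 it was called higher in E10.5 HE, at 161.8 CPM in HE, against 57.1 CPM in GFI1+ IAHC (1.49), and in E11.5 GFI1+ IAHC, at 165.99 CPM in E11.5 GFI1+ IAHC, against 57.1 CPM in E10.5 GFI1+ IAHC (1.52). At E11.5 the gap between HE and GFI1+ IAHC was smaller, at 321.8, 190.3 and 237.2 CPM in HE, against 181.4, 127.96 and 165.99 CPM in GFI1+ IAHC in GL53, GL58 and GL78 (0.63 ± 0.17). In HE by stage Agrn was at 190.3 and 237.2 CPM in E11.5 HE, against 53.7 and 161.8 CPM in E10.5 HE in GL58 and GL78 (1.18 ± 0.89), and the 2 batches differed widely. Agrn was at 580.5 CPM in cluster 4, 185.4 in cluster 0 and 58.5 in cluster 2, and Hspg2 at 573.8 CPM in cluster 4, 427.5 in cluster 1 and 57.5 in cluster 2.

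The multiplexins are collagens of basement membrane zones, and the end of the Col18a1 protein is released as endostatin. Col18a1 was at a level with a 95% counting interval of 1460.4 to 1473.6 CPM in E11.5 HE, and at 1086 CPM in E11.5 GFI1+ IAHC and 864.6 CPM in E11.5 GFI1- IAHC. E10.5 levels of Col18a1 were 1195 CPM in HE and 589.1 CPM in GFI1+ IAHC. At E11.5, in GL53, GL58 and GL78, Col18a1 was at 1469.8, 1129 and 1637 CPM in HE, against 1175, 687.7 and 1118 CPM in GFI1+ IAHC (0.53 ± 0.20). Its E10.5 levels in GL78 were 1300.3 CPM in HE, against 668.6 CPM in GFI1+ IAHC (0.96). HE was above GFI1+ IAHC in each batch, but the batches of the populations overlapped at E11.5. By stage Col18a1 was at 1129 and 1637 CPM in E11.5 HE, against 734.1 and 1300.3 CPM in E10.5 HE in GL58 and GL78 (0.48 ± 0.20), and at 1118 CPM in E11.5 GFI1+ IAHC, against 668.6 CPM in E10.5 GFI1+ IAHC in GL78 (0.74). Unlike most members it kept a sizeable level outside the endothelial clusters, with 473.7 CPM in cluster 2 and 432.9 CPM in cluster 9. It had 1409.7 CPM in cluster 0, 1565 in cluster 7, 2496 in cluster 4 and 108.3 in cluster 6. Col15a1 was at 110.7 CPM in E11.5 HE, 68.4 CPM in E11.5 GFI1+ IAHC and 52.6 CPM in E11.5 GFI1- IAHC. E10.5 levels of Col15a1 were 35.2 CPM in HE and 22.9 CPM in GFI1+ IAHC. It was called higher at E11.5 in HE, at 112.5 and 96.8 CPM in E11.5 HE, against 48 and 32.3 CPM in E10.5 HE in GL58 and GL78 (1.38 ± 0.24), and in GFI1+ IAHC, at 64 CPM in E11.5 GFI1+ IAHC, against 23 CPM in E10.5 GFI1+ IAHC (1.44). Between HE and GFI1+ IAHC at E11.5 it was at 116.1, 112.5 and 96.8 CPM in HE, against 67.2, 85.2 and 64 CPM in GFI1+ IAHC in GL53, GL58 and GL78, a ratio of 0.59 ± 0.19, and the ratio was 0.47 at E10.5. Cluster 1 had the most Col15a1, 153.95 CPM, and cluster 7 had 112.9 CPM, against 35.3 CPM in cluster 4 and 0.225 CPM in cluster 2.

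Sparc, which binds collagens and assists their deposition, had the highest level of all members per length of exon, at 854.8 RPKM in E11.5 HE, 407.98 RPKM in E11.5 GFI1+ IAHC and 370.4 RPKM in E11.5 GFI1- IAHC. E10.5 levels of Sparc were 428.3 RPKM in HE and 250.2 RPKM in GFI1+ IAHC. At E11.5 it was at 3336, 2445 and 3410.1 CPM in HE, against 1543, 1439 and 1586 CPM in GFI1+ IAHC in GL53, GL58 and GL78, and every HE batch was above every GFI1+ IAHC batch (0.99 ± 0.20). The GL58 ratio was under 2-fold, so no call was made. Sparc ratios were 0.90 for HE over GFI1+ IAHC at E10.5, 0.13 ± 0.12 for GFI1+ over GFI1- IAHC, and 0.92 ± 0.14 and 0.82 for E11.5 over E10.5 in HE and in GFI1+ IAHC. It was at 3910.3 CPM in cluster 4, 1613 CPM in cluster 6 and 252.1 CPM in cluster 2. Its relative Sparcl1 was at 1153 CPM in E11.5 HE, 374.6 CPM in E11.5 GFI1+ IAHC and 278.9 CPM in E11.5 GFI1- IAHC. E10.5 levels of Sparcl1 were 197.6 CPM in HE and 76.3 CPM in GFI1+ IAHC. In GL53, GL58 and GL78 at E11.5 Sparcl1 was at 1252, 1138 and 916.02 CPM in HE, against 423.7, 360.4 and 319.8 CPM in GFI1+ IAHC, called higher in HE with nearly the same ratio in each batch (1.58 ± 0.07). E10.5 levels in GL78 were 211.8 CPM in HE, against 81.6 CPM in GFI1+ IAHC (1.37). By stage it was at 1138 and 916.02 CPM in E11.5 HE, against 135.9 and 211.8 CPM in E10.5 HE in GL58 and GL78 (2.58 ± 0.67), and at 319.8 CPM in E11.5 GFI1+ IAHC, against 81.6 CPM in E10.5 GFI1+ IAHC in GL78 (1.96). Sparcl1 was thus the 1 member called in all 4 of the HE and stage comparisons, which share cells with each other. Sparcl1 was read in 92.4% of HE and 67.9% of GFI1+ IAHC cells at E11.5, and in 58.7% of HE and 44.8% of GFI1+ IAHC cells at E10.5. Thinned to 50000 counts a cell, the shares were 91.9% in E11.5 HE, 65% in E11.5 GFI1+ IAHC, 49.5% in E10.5 HE and 36.2% in E10.5 GFI1+ IAHC. Between clusters it ranged widely, at 1085 CPM in cluster 4, 980.7 in cluster 1, 5.63 in cluster 7 and 3.62 in cluster 2.

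Fn1 (fibronectin, the ligand of the alpha 5 beta 1 integrin) was spread unlike the basement membrane genes. Its summed level was 966.4 CPM in E11.5 HE, 427.1 CPM in E11.5 GFI1+ IAHC and 666.2 CPM in E11.5 GFI1- IAHC. E10.5 levels of Fn1 were 1157 CPM in HE and 559.7 CPM in GFI1+ IAHC. The median cell, in contrast, was at 180.6 CPM in E11.5 HE, 182.6 in E11.5 GFI1+ IAHC, 248.8 in E11.5 GFI1- IAHC, 190.4 in E10.5 HE and 190.1 in E10.5 GFI1+ IAHC. The median cell was much alike in the 4 GFI1+ populations, while their sums differed. Cluster 4 was at 3438 CPM, cluster 6 at 1347, cluster 2 at 860.3, and clusters 1, 3 and 5 at 179.4, 191.1 and 163.6 CPM. At E11.5 Fn1 was at 1090.2, 505.99 and 902.6 CPM in HE, against 547.4, 295.2 and 326.9 CPM in GFI1+ IAHC in GL53, GL58 and GL78 (1.08 ± 0.35), and 1 HE batch overlapped the GFI1+ IAHC range. In GL78 it was called lower at E11.5 in GFI1+ IAHC, at 326.9 CPM in E11.5 GFI1+ IAHC, against 704.7 CPM in E10.5 GFI1+ IAHC (-1.11), while in HE the batches went apart, at 505.99 and 902.6 CPM in E11.5 HE, against 486.3 and 1310.2 CPM in E10.5 HE in GL58 and GL78. In cluster 2, 63 cells (57.8%) had Fn1 at 10 CPM or more, and 20 of them were without Col4a1. In cluster 4, 74 of the 76 cells had Fn1, each with Col4a1. GFI1+ over GFI1- IAHC gave 547.4 and 326.9 CPM in GFI1+ IAHC, against 767.4 and 477.9 CPM in GFI1- IAHC in GL53 and GL78 (-0.52 ± 0.04).

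Among the 11 fibrillar collagens, Col5a2, a chain that starts and limits collagen fibrils, had the highest level per length of exon in HE. It was at 40.5 RPKM at E11.5 and 19.4 RPKM at E10.5, where the next chain was at 3.55 RPKM (Col3a1) and 1.89 RPKM (Col1a1). Summed, it was at 388.03 CPM in E11.5 HE, 119.2 CPM in E11.5 GFI1+ IAHC and 161.7 CPM in E11.5 GFI1- IAHC. E10.5 levels of Col5a2 were 186.5 CPM in HE and 80.03 CPM in GFI1+ IAHC. At E11.5 it was at 490.4, 159.7 and 255.8 CPM in HE, against 156.6, 97.4 and 81.3 CPM in GFI1+ IAHC in GL53, GL58 and GL78 (1.33 ± 0.54), with GL58 under 2-fold. E10.5 levels in GL78 were 204.6 CPM in HE, against 81 CPM in GFI1+ IAHC (1.33, called). Cluster 4 had it at 942.9 CPM and cluster 2 at 39.5 CPM. The chains of type I and type III collagen, the main fibres of mesenchyme, were highest in GFI1- IAHC of GL53. In GL53 and GL78, Col1a1 was at 3.53 and 4.63 CPM in GFI1+ IAHC, against 673.9 and 0.0355 CPM in GFI1- IAHC, so the ratio changed sign between batches (-7.22 and 2.44). Col1a2 was at 10.9 and 4.41 CPM in GFI1+ IAHC, against 481.3 and 3.41 CPM in GFI1- IAHC in GL53 and GL78, and Col3a1 at 26.1 and 13 CPM in GFI1+ IAHC, against 676.4 and 31.9 CPM in GFI1- IAHC. Col3a1 was called lower in GFI1+ IAHC (-4.64 and -1.23 in the 2 batches). Cluster 6 held these reads, with 1687 CPM of Col1a1, 1179 CPM of Col1a2 and 1726 CPM of Col3a1. In the other populations Col1a1 was at 0.504 CPM in E11.5 HE, 12.4 in E10.5 HE and 6.38 in E10.5 GFI1+ IAHC. Col1a2 was at 11.4 CPM in E11.5 HE, 9.1 in E10.5 HE and 1.56 in E10.5 GFI1+ IAHC. Col1a1 was called lower at E11.5 in HE, with 0 reads in GL58 and GL78 of E11.5 HE, against 56 and 2.42 CPM in E10.5 HE. In E10.5 HE 1 cell held 75.7% of the reads. Of the E10.5 HE cells, 3 had reads of both Col1a1 and Col1a2 and 4 of Col1a1 alone. Counted in reads against a floor of 3 in each batch, E11.5 HE was at least 315.7-fold lower in GL58 and at least 26.1-fold lower in GL78. These limits cover counting error only. They leave out the sampling of cells and do not bound the difference between stages. Col3a1 was at 34.8 CPM in E11.5 HE, 18 in E11.5 GFI1+ IAHC, 12.6 in E10.5 HE and 11 in E10.5 GFI1+ IAHC. It was called higher in E10.5 HE in GL78, at 10.4 CPM in HE, against 2.71 CPM in GFI1+ IAHC, and in E11.5 GFI1+ IAHC in GL78, at 13 CPM in E11.5 GFI1+ IAHC, against 2.71 CPM in E10.5 GFI1+ IAHC.

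Few of the remaining collagens reached 10 CPM outside GFI1- IAHC. Col13a1, a transmembrane collagen, was highest in cluster 0 (37.2 CPM) and was called higher in GFI1+ IAHC, at 32.4 and 14.2 CPM in GFI1+ IAHC, against 12.2 and 1.42 CPM in GFI1- IAHC in GL53 and GL78 (2.00 ± 0.93). It was also called higher at E11.5 in HE, at 31.8 and 19.7 CPM in E11.5 HE, against 14 and 2.97 CPM in E10.5 HE in GL58 and GL78 (1.75 ± 0.89), and in GFI1+ IAHC, at 14.2 CPM in E11.5 GFI1+ IAHC, against 1.69 CPM in E10.5 GFI1+ IAHC in GL78. Its relative Col23a1 was at 93.3 CPM in E11.5 HE, 99.5 CPM in E11.5 GFI1+ IAHC and 100.9 CPM in E11.5 GFI1- IAHC. E10.5 levels of Col23a1 were 29.6 CPM in HE and 37.3 CPM in GFI1+ IAHC. It was at 174.5 CPM in cluster 0 and was called higher at E11.5 in GFI1+ IAHC (1.58). Col5a1 (12.9 CPM in E11.5 GFI1+ IAHC, against 4.62 CPM in E10.5 GFI1+ IAHC) and Col26a1 (17.4 CPM in E11.5 GFI1+ IAHC, against 7.66 CPM in E10.5 GFI1+ IAHC) were also called there. Col2a1, the cartilage collagen, was at 33.9 CPM in E11.5 GFI1+ IAHC, against 0.724 CPM in E10.5 GFI1+ IAHC in GL78 (4.34, called). There 1 cell gave all of the E11.5 reads in that batch, and without that cell the log2 ratio was -0.20. In E11.5 GFI1- IAHC, Col12a1 was at 62.9 CPM, Col9a1 at 29.6, Col11a1 at 28.1, Col6a1 at 24.5, Col14a1 at 15.3, Col25a1 at 14.6 and Col8a2 at 10.3 CPM. These are chains of fibril-associated, cartilage, beaded-filament, transmembrane (Col25a1) and short-chain collagens. Col12a1 and Col6a1 had 96.7 and 37.7 CPM in GL53 and 0 and 0 CPM in GL78, and cluster 6 had them at 232.7 and 108.1 CPM. The 22 members under 10 CPM in every population ranged up to 7.13 CPM, the level of Col16a1 in E11.5 GFI1- IAHC, and 12 of them were also under 10 CPM in every cluster.

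The comparison of HE with GFI1+ IAHC sets GFI1+ endothelial cells of the cKIT- gate against GFI1+ cells of the cKIT+ gate, within each batch. Most cells of both gates carried endothelial genes. Clusters 0, 1, 3 and 5 held 70.9% of E11.5 HE and 70% of E11.5 GFI1+ IAHC, and 49.5% of E10.5 HE and 56% of E10.5 GFI1+ IAHC. Cluster 2 held 4.07% of E11.5 HE and 16.2% of E11.5 GFI1+ IAHC, and 10.1% of E10.5 HE and 36.2% of E10.5 GFI1+ IAHC. The endothelial marker list summed to 10296 CPM in E11.5 HE, against 6889.5 CPM in E11.5 GFI1+ IAHC, and to 6161 CPM in E10.5 HE, against 4209 CPM in E10.5 GFI1+ IAHC, and its part in the result was not tested. At E11.5, 26 of the 62 members were measured, with at least 10 CPM on the higher side. Of these, 3 were called higher in HE (Lama3, Lama5 and Sparcl1), beside 0.917% of 9923 genes called higher, and 0 were called lower, beside 0.917% called lower. The log2 ratio was above 0 for 21 of the 26, with a median of 0.67 over the members and -0.08 over all genes measured. The medians in GL53, GL58 and GL78 were 0.76, 0.71 and 0.86. Without clusters 6 to 10 the E11.5 median was 0.57 over the members and -0.06 over all genes, and the calls of Lama3, Lama5 and Sparcl1 stayed. At E10.5, where GL78 was the 1 batch with both populations, 9 of 21 measured members were called higher in HE, beside 5.47% of 9577 genes, and 1 was called lower (Lama1), beside 1.99%. The 9 were Agrn, Col3a1, Col4a2, Col5a2, Lama3, Lama5, Lamb2, Nid1 and Sparcl1, and the median was 0.90 over the members and -0.02 over all genes. Platelet markers moved with this comparison: the list summed to 3013 CPM in E10.5 HE, against 58.6 CPM in E10.5 GFI1+ IAHC, and 10 of its 10 markers reached 10 CPM in HE, against 2 in GFI1+ IAHC. Without clusters 6 to 10, which include cluster 9, 12 of 20 measured members were called higher and 0 lower, beside 3.73% of all genes called higher and 2.7% lower. By role at E11.5, the medians were 0.78 for 3 measured type IV collagens, 1.76 for 3 laminin alpha chains, 0.64 for 2 beta chains, 0.81 for the 4 linkers and proteoglycans, 0.56 for the 2 multiplexins and -0.06 for 5 fibrillar collagens.

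The cells of cluster 4, in which Lama3, Lama5 and Fn1 were highest, made up 24.4% of HE and 0.833% of GFI1+ IAHC at E11.5, and 24.8% of HE and 1.72% of GFI1+ IAHC at E10.5. The summed level of the arterial marker list was 7649.7 CPM in cluster 4 and at most 1619 CPM in any other cluster. By population it was 2853 CPM in E11.5 HE, against 719.7 CPM in E11.5 GFI1+ IAHC, and 2358 CPM in E10.5 HE, against 679.8 CPM in E10.5 GFI1+ IAHC, and the part of arterial identity in the result was not tested. Without cluster 4, a selection made after the data were seen, the median over members at E11.5 was 0.41, beside -0.09 over all genes, and that at E10.5 was 0.28, beside -0.06. At E11.5 this left Sparcl1 called higher (1.53 ± 0.21) and no member called lower, beside 0.234% of all genes called higher and 1.2% lower. Nid2 was at 1.25 ± 0.26, Sparc at 0.81 ± 0.21, Nid1 at 0.71 ± 0.16 and Col4a1 at 0.70 ± 0.10. Fn1 turned to -0.83 ± 0.66, Lama5 to -0.14 ± 1.51 and Lama3 to -2.33 ± 0.84 there, the last of these under 10 CPM on both sides. In clusters 0, 1, 3 and 5 alone the median was 0.24 at E11.5, beside -0.04 over all genes, and -0.02 at E10.5, beside -0.01. In these clusters Nid2 was at 394.9, 509.4 and 458.99 CPM in E11.5 HE, against 165.7, 248.2 and 206.1 CPM in E11.5 GFI1+ IAHC in GL53, GL58 and GL78, and was the 1 member called, as higher (1.14 ± 0.11), beside 0.212% of all genes called higher and 0.297% lower. Nid2 was highest in cluster 1 (455.04 CPM), which held 39% of all E11.5 HE cells, against 16.25% of E11.5 GFI1+ IAHC cells. The part of this makeup in the Nid2 call was not tested. Fn1 was at 225.9, 152.7 and 326.1 CPM in E11.5 HE, against 541.02, 295.8 and 347.5 CPM in E11.5 GFI1+ IAHC (-0.77 ± 0.60). At E10.5 in the same clusters, Col4a1 was at 0.04, Lama4 at -0.04, Nid1 at 0.10 and Sparcl1 at 0.10, all near 0, and Lama5 at -1.11.

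**Figure D3:**
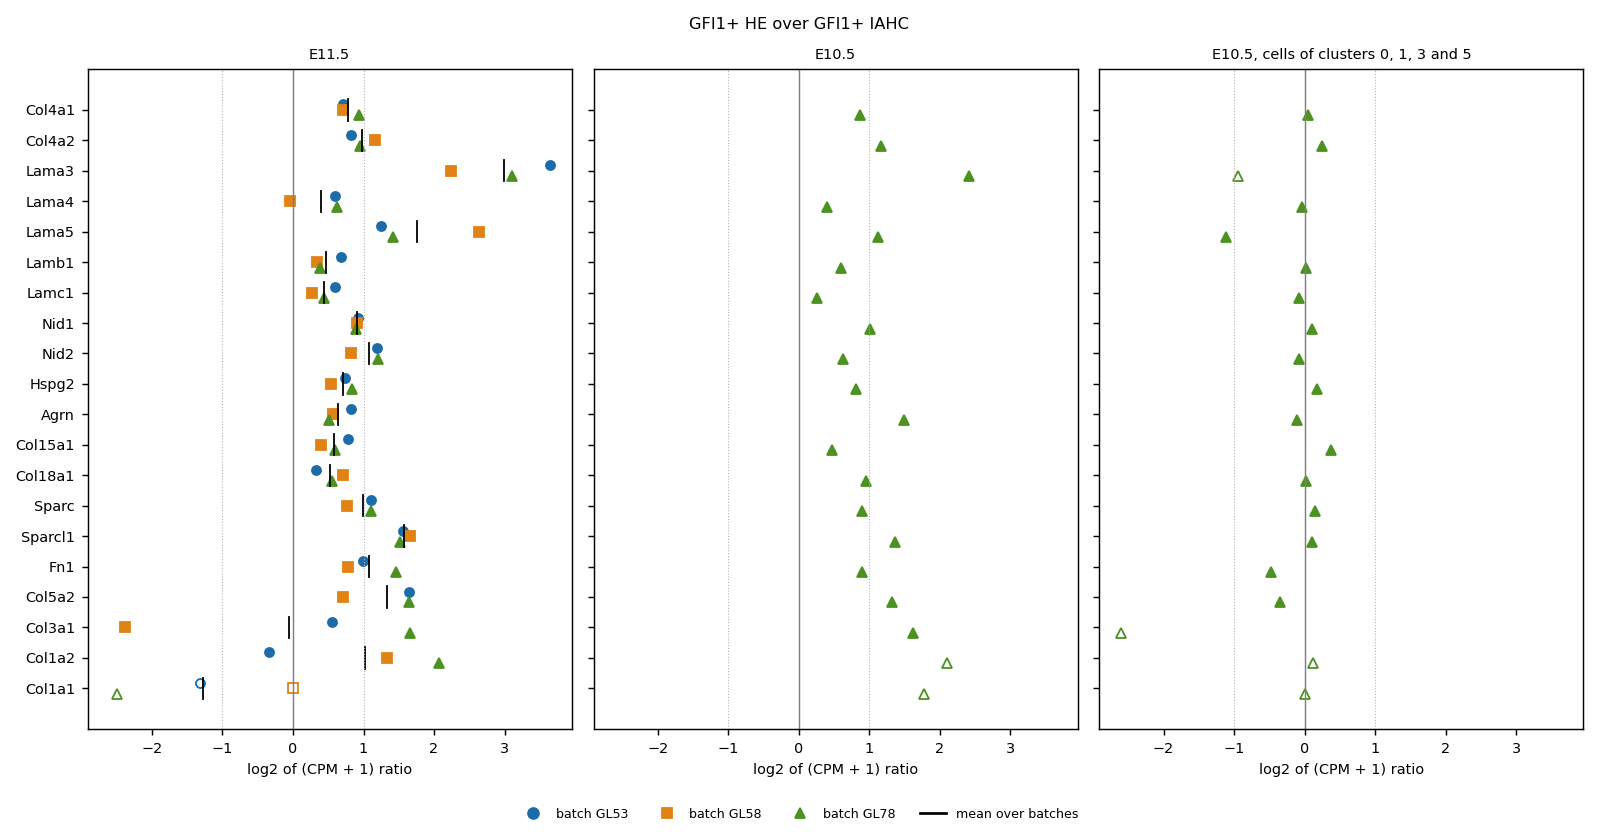
Log2 ratio of summed CPM (1 CPM added) of HE over GFI1+ IAHC on the x axis for the named members (y axis), at E11.5, at E10.5 and at E10.5 in cells of clusters 0, 1, 3 and 5 (panels), with 1 symbol per batch, a black tick at the mean over batches, open symbols where both populations were under 10 CPM and dotted lines at 2-fold. Most members lie to the right of 0 at both stages and near 0 in the third panel, and Lama3 (3.64, 2.24 and 3.10 in GL53, GL58 and GL78 at E11.5) lies farthest to the right.

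The stage comparisons, E11.5 over E10.5, cover the day over which stem cell activity in the AGM increases, and are bound to plates as well as to stage. In HE (GL58 and GL78), 5 of 25 measured members were called higher at E11.5 (Col13a1, Col15a1, Lama4, Nid2 and Sparcl1), beside 2.48% of 9808 genes, and 1 lower (Col1a1), beside 1.99%. The median was 0.77 over the members and -0.01 over all genes, and 20 of the 25 were above 0. Marker lists moved with stage in HE. The endothelial list was at 8395 to 10905 CPM in the batches of E11.5 HE, against 5204 to 6380 CPM in those of E10.5 HE, the platelet list at 65.2 to 2958 CPM in E11.5 HE, against 696.8 to 3543 CPM in E10.5 HE, and the erythroid list at 12.4 to 18.5 CPM in E11.5 HE, against 318.2 to 584.5 CPM in E10.5 HE. Of the 9 erythroid markers, 1 reached 10 CPM in E11.5 HE, against 4 in E10.5 HE, and the part of these lists in the result was not tested. Without clusters 6 to 10, 3 of 24 were called higher (Col1a2, Nid2 and Sparcl1) and 0 lower, beside 2.58% of all genes called higher and 1.08% lower. In GFI1+ IAHC (GL78 alone), 11 of 24 were called higher (Agrn, Col13a1, Col15a1, Col23a1, Col26a1, Col2a1, Col3a1, Col5a1, Lama4, Lamb2 and Sparcl1), beside 8.79% of 9797 genes, and 3 lower (Fn1, Lama1 and Lama5), beside 2.48%. The median was 0.88 over the members and 0.07 over all genes. Without clusters 6 to 10, 8 of 23 were called higher and 3 lower, beside 8.85% of all genes called higher and 3.02% lower: Col26a1, Col2a1, Lama4 and Lamb2 were no longer called and Nid2 was. With TMM or median-of-ratios factors 9 were called higher, Lama4 and Lamb2 having dropped out. The endothelial list summed to 6889.5 CPM in E11.5 GFI1+ IAHC, against 4209 CPM in E10.5 GFI1+ IAHC. Cells of cluster 2 made up 16.9% of E11.5 GFI1+ IAHC, against 41.4% of E10.5 GFI1+ IAHC, in GL78, and the part of this makeup was not tested. Within clusters 0, 1, 3 and 5, Sparcl1 was at 3.58 ± 0.85 in HE and 1.83 in GFI1+ IAHC, Agrn at 2.02 ± 0.32 and 2.23, and Nid2 at 1.67 ± 0.09 and 0.50. Lama5 was at -0.90 ± 1.31 in HE and -1.60 in GFI1+ IAHC in those clusters, while Lama4 was at 1.04 ± 0.30 and 0.55 and Fn1 in GFI1+ IAHC turned to 0.64.

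Within cluster 2 most members were lower at E11.5. In GL78 that cluster held 15 E11.5 and 36 E10.5 GFI1+ IAHC cells, and the median over 17 measured members was -2.58, beside 0.00 over all genes. Of the 17, 2 were called higher (Col11a2 and Col25a1) and 14 lower, beside 21.2% of all genes called higher and 18% lower. Fn1 was at 77 CPM in E11.5 cells, against 1254 CPM in E10.5 cells, Lama5 at 2.11 CPM in E11.5 cells, against 63.3 CPM in E10.5 cells, Sparc at 55 CPM in E11.5 cells, against 240.1 CPM in E10.5 cells and Col18a1 at 153.4 CPM in E11.5 cells, against 614.1 CPM in E10.5 cells. Col4a1, Nid1 and Lama4 had 0 reads in the 15 E11.5 cells, against 239.96, 45.3 and 26.7 CPM in the E10.5 cells, which against a floor of 3 reads was at least 757.9-fold, 143.03-fold and 84.3-fold lower. Lamc1 differed least of these, at 32.6 CPM in E11.5 cells, against 68 CPM in E10.5 cells (-1.04). The E11.5 side rested on 15 cells of 1 batch. The fold limits given for Col4a1, Nid1 and Lama4 cover counting of reads only. They leave out the sampling of cells and do not bound the difference between stages. Over all of cluster 2, 19 cells (17.4%) had Lama4 at 10 CPM or more.

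**Figure D4:**
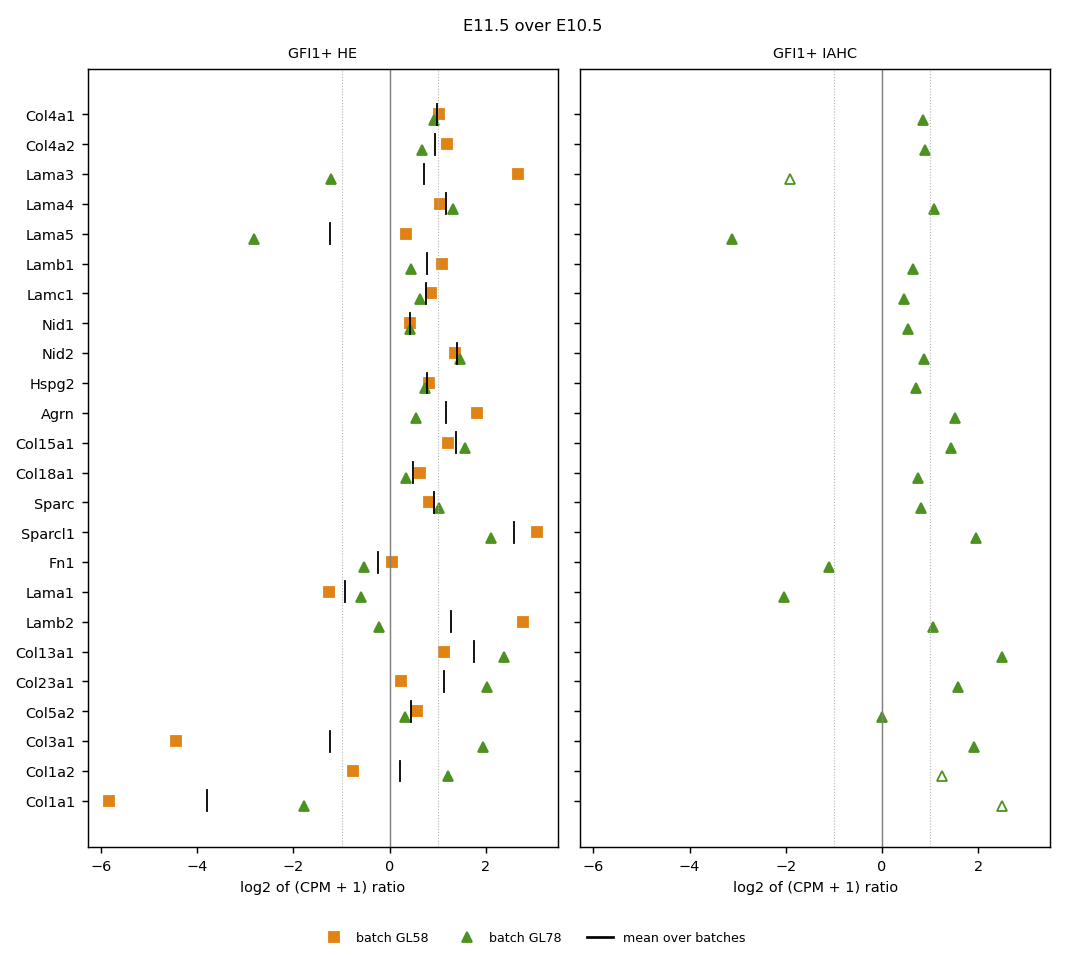
Log2 ratio of summed CPM (1 CPM added) of E11.5 over E10.5 on the x axis for the named members (y axis), in HE and in GFI1+ IAHC, with 1 symbol per batch, a black tick at the mean over batches, open symbols where both stages were under 10 CPM and dotted lines at 2-fold. Sparcl1, Col15a1 and Lama4 lie to the right in every batch, while Lama5 in GL78 lies at -3.11 in GFI1+ IAHC and at -2.83 in HE.

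GFI1+ over GFI1- IAHC at E11.5 compares the cluster cells sorted with the reporter on with those sorted with it off. Of 37 measured members, 1 was called higher in GFI1+ IAHC (Col13a1), beside 0.493% of 10345 genes, and 2 lower (Col3a1 and Lama2), beside 1.76%. The median was -0.38 over the members and -0.02 over all genes, with -0.49 in GL53 and 0.06 in GL78. GL53 held the GFI1- cells of cluster 6: the mesenchymal list summed to 1765 CPM there and 117.3 CPM in GL78 of GFI1- IAHC. In GFI1+ IAHC it summed to between 109.9 and 133.6 CPM. No marker of the list was at 0 in either population. In GFI1+ IAHC 2 of the 13 reached 10 CPM, against 11 in GFI1- IAHC, and their part in the result was not tested. Without clusters 6 to 10, 23 members were measured, the median was 0.02, beside 0.01 over all genes, and Col13a1 (1.82 ± 1.15) was the 1 member called, as higher, beside 0.829% of all genes called higher and 0.599% lower. Over all kept cells, of the basement membrane genes, Col4a2 was at 0.68 ± 0.20, Col4a1 at 0.52 ± 0.28, Hspg2 at 0.48 ± 0.38, Agrn at 0.42 ± 0.14, Nid1 at 0.08 ± 0.11, Nid2 at 0.17 ± 0.17, Lama4 at 0.25 ± 0.14 and Lamc1 at 0.10 ± 0.05, all within 2-fold.

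**Figure D5:**
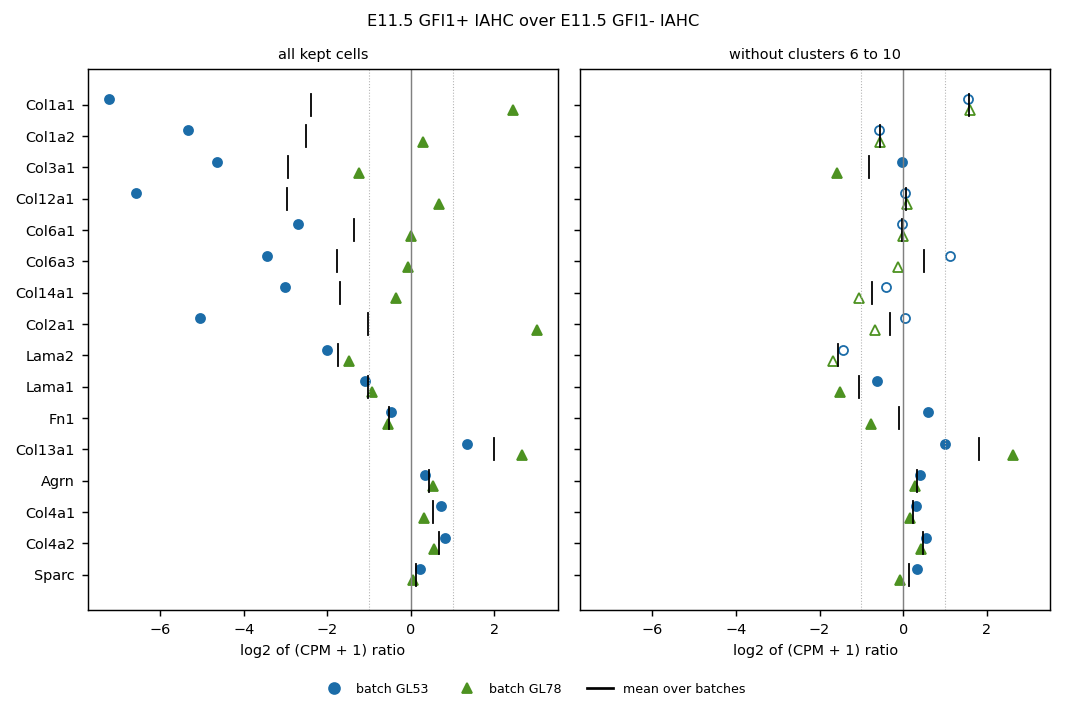
Log2 ratio of summed CPM (1 CPM added) of GFI1+ over GFI1- IAHC at E11.5 on the x axis for the named members (y axis), over all kept cells and without clusters 6 to 10, with 1 symbol per batch (GL53 and GL78), a black tick at the mean over batches, open symbols where both populations were under 10 CPM and dotted lines at 2-fold. Fibrillar collagens such as Col1a1 (-7.22 and 2.44 in GL53 and GL78) and Col3a1 (-4.64 and -1.23) spread widely over all kept cells, while Col4a1, Col4a2, Agrn and Sparc stay between the dotted lines.

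Genes that fold, cross-link, bind or cut these proteins were followed as 5 lists taken from textbook knowledge. At E11.5, HE over GFI1+ IAHC, none was called of 16 measured collagen folding and modifying enzymes (list of 20), 4 cross-linking enzymes (of 7), 9 collagen and laminin receptors (of 14), 5 fibronectin and RGD integrins (of 8) and 12 proteases and inhibitors (of 16), beside 0.917% of all genes called higher and 0.917% lower. The medians, in that order, were 0.42, -0.02, 0.16, -0.13 and 0.18. At E10.5, 1 of 15 folding enzymes was called higher in HE, 0 of 3 cross-linking enzymes, 2 of 8 receptors, 2 of 4 integrins and 4 of 12 proteases and inhibitors, and 1 integrin lower, beside 5.47% of all genes called higher and 1.99% lower. The medians were 0.34, 0.75, 0.62, 0.90 and 0.75, beside -0.02 over all genes. The enzyme was P4ha3 (26 CPM in HE, against 0.369 CPM in GFI1+ IAHC), a subunit of the prolyl hydroxylase that stabilises collagen helices, which was at 273.8 CPM in cluster 4. The receptors were Itga2 (38.1 CPM in HE, against 10.4 CPM in GFI1+ IAHC), the alpha chain of a collagen-binding integrin, and Bcam (10.2 CPM in HE, against 1.02 CPM in GFI1+ IAHC), a receptor for laminin alpha 5. Itgav (17.7 CPM in HE, against 7.86 CPM in GFI1+ IAHC) and Itgb3 (340.01 CPM in HE, against 91 CPM in GFI1+ IAHC) pair as an RGD-binding integrin, and Itgb3, also a platelet integrin, was at 3116 CPM in cluster 9. Itga4 was called lower (9.03 CPM in HE, against 30.4 CPM in GFI1+ IAHC). The proteases and inhibitors were Mmp11, Mmp14, Plat and Timp2, with log2 ratios of 1.45, 1.10, 1.72 and 1.15.

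By stage in HE, 2 of 17 folding enzymes were called higher at E11.5 (P4ha3 at 2.08 ± 0.92 and Colgalt2, a collagen galactosyltransferase, at 1.76 ± 0.42) and 1 lower (Pcolce, at -1.50 ± 0.19). Pcolce was at 335.4 CPM in cluster 6, against at most 11.7 CPM in any other cluster. That cluster held 2 E10.5 HE cells and 0 E11.5 HE cells, and their part in the call was not tested. Further, 1 of 12 proteases and inhibitors was higher (Adamts9, 1.37 ± 0.08) and 1 of 4 integrins lower (Itgb3, -3.36 ± 3.15), and 0 of 4 cross-linking enzymes and 0 of 8 receptors were called, beside 2.48% of all genes called higher and 1.99% lower. The medians were -0.11 for folding enzymes, 0.61 for proteases and inhibitors, 0.54 for integrins, 0.42 for cross-linking enzymes and 0.49 for receptors. In GFI1+ IAHC, where 8.79% of all genes were called higher and 2.48% lower, 5 of 12 proteases and inhibitors were called higher at E11.5 (Mmp11, Adamts1, Adamts4, Adamts9 and Plau, with a list median of 0.80), and Adamts1, a protease that cuts proteoglycans, was at 297.8 CPM in E11.5 GFI1+ IAHC, against 102.04 CPM in E10.5 GFI1+ IAHC (1.54). Serpinh1, the collagen chaperone of the endoplasmic reticulum, was called lower at 89.3 CPM in E11.5 GFI1+ IAHC, against 242.6 CPM in E10.5 GFI1+ IAHC (-1.43), and Pcolce higher (1.98), of 15 folding enzymes with a median of 0.03. Of 7 receptors (median 0.43), Itga2 was called higher (2.67) and Itga1 lower (-1.43). Of 5 integrins (median 0.45) Itgav and Itgb5 were higher (1.22 and 1.50) and Itgb3 lower (-2.23), and 0 of 3 cross-linking enzymes were called (median 0.34). GFI1+ over GFI1- IAHC gave 0 called higher in any of the lists and 3 lower, beside 0.493% and 1.76% of all genes: Adamts2 of 19 folding enzymes (-3.32 ± 1.68), Itga1 of 10 receptors (-1.32 ± 0.12) and Timp2 of 12 proteases and inhibitors (-1.60 ± 0.14). The medians were -0.12, 0.09 and 0.03 for these lists, -0.25 for 5 cross-linking enzymes and -0.27 for 6 integrins. The mesenchymal cells of cluster 6, most of them sorted as GFI1- IAHC, are included here. Adamts2 was at 64.6 CPM in cluster 6, against at most 1.58 CPM in any other cluster. Timp2 was at 102.6 CPM there and 75.3 CPM in cluster 4, and Itga1 at 38.4 CPM there and 37.1 CPM in cluster 1. The part of cluster 6 in these 3 calls was not tested.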

How the data were processed

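Per the submitters' processing notes and the paper's methods, the authors sequenced paired-end Smart-Seq2 libraries of single cells, aligned the reads with STAR 2.7.3 to mm10 and deposited raw read counts per gene from HTSeq 0.9.1. For strand setting and annotation release, nothing is given in the sources used here. Cells were kept as the authors kept them: their filter and Louvain clusters (Scanpy 1.4.4) were read from the deposited annotation. A deposited table of natural log normalized values was not used. No column of another series was present (0 unused columns).

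Counts were summed per population and batch and divided by the summed total of all genes without the 92 spike-ins, giving CPM. Ratios were taken within each batch holding at least 10 kept cells of both sides, as log2 of CPM plus 1, and averaged over batches with equal weight (mean ± SD over batches). A member was measured at 10 CPM or more on the higher side and called at 2-fold or more in the same direction in every batch used. RPKM used exon lengths of the GENCODE vM21 annotation (GRCm38), which matched 45229 of 46078 genes, and unmatched genes held 0.0575% of counts. Other genes covered at most 8.45% of the exon bases of a member, and without the strand setting such reads cannot be told apart. Shares of cells were repeated after thinning to 50000 counts, and counting intervals are Poisson at 95%.

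No test was made, since no animal is named for any cell. There were 0 identical libraries to merge. Members and lists were chosen with earlier results of these data known. Full values are given for 19 genes that head the role groups, and further members are named where called or highest in their role group. Alternatives were other pseudocounts, filters, scalings (TMM of edgeR 4.0.16 and median-of-ratios), pooled batches, thinning, cells left out, each batch left out and subsets of clusters. Python 3.11.15, numpy 2.4.6, scipy 1.17.1, pandas 2.3.3 and matplotlib 3.10.9 were used, and the scripts were tested on simulated data. One item is not reported here.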

Additional observations from a re-analysis of the deposited data

Results flagged for a closer look

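Cells outside the comparisons also held reads of these genes, above the limit that a count of 0 allows. In the 3 E10.5 GFI1- IAHC cells the members made up 0.394% of counts. Among cells that the authors left out, they made up 1.38% in 21 E11.5 HE cells, 0.426% in 17 E11.5 GFI1+ IAHC cells, 0.140% in 46 E11.5 GFI1- IAHC cells and 0.440% in 1 E10.5 GFI1+ IAHC cell. In the kept cells the shares were 1.37% in E11.5 HE, 0.738% in E11.5 GFI1+ IAHC, 0.788% in E11.5 GFI1- IAHC and 0.433% in E10.5 GFI1+ IAHC. The left-out HE cell share lay beside that of kept HE cells, and the left-out GFI1- IAHC cells were lower. No group held 4 to 10 samples, so single samples were not screened for distance from the rest.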

How the results depend on the processing

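Log2 ratios of the named members reversed in 14 values under the alternatives, and the cause was not tested. The counts below show how the calls of members moved. Shares of all genes called were taken for some of the cluster subsets only, as given with the comparisons above. The other counts have no such share beside them, so they cannot be set against all genes. Pooling batches or leaving a batch out also loosens the call rule for every gene. HE over GFI1+ IAHC at E11.5 (3 members called higher, 0 lower) gave 8 higher and 1 lower with batches pooled, 1 higher in clusters 0, 1, 3 and 5 and 1 without cluster 4, and 3 to 7 higher with each batch left out (7 without GL58). Lama5 was the member lost, leaving 2 higher, with 5 CPM added, at 50 CPM or more and without the cell with most reads. Lama3 was at -1.56 in clusters 0, 1, 3 and 5 and -2.33 without cluster 4, and Lama5 at -0.14 without cluster 4. At E10.5 (9 higher, 1 lower) there were 0 lower with 5 CPM added, at 50 CPM or more, with median-of-ratios factors, thinned and without clusters 6 to 10, 17 higher and 2 lower with no filter, 1 higher and 2 lower in clusters 0, 1, 3 and 5, and 1 higher without cluster 4. Col3a1 and Nid1 lost their calls with 5 CPM added and without the cell with most reads. In clusters 0, 1, 3 and 5 Agrn was at -0.11, Col3a1 at -2.60, Col5a2 at -0.35, Lama3 at -0.94, Lama5 at -1.11 and Lamb2 at -0.072, and Lama5 was at -0.72 without cluster 4. GFI1+ over GFI1- IAHC (1 higher, 2 lower) gave 1 lower with 5 CPM added, 0 higher and 1 lower at 50 CPM or more, 17 lower with batches pooled, 0 lower without clusters 6 to 10, without the cell with most reads and in clusters 0, 1, 3 and 5, and 1 lower without cluster 4. With a batch left out it gave 1 to 3 higher (3 without GL53) and 3 to 19 lower (19 without GL78). The HE stage comparison (5 higher, 1 lower) gave 0 lower with 5 CPM added, at 50 CPM or more, without clusters 6 to 10, without the cell with most reads and in clusters 0, 1, 3 and 5, 3 lower with no filter, 2 lower with batches pooled, 3 higher without clusters 6 to 10, 8 higher in clusters 0, 1, 3 and 5 and 8 without cluster 4, and 11 to 12 higher and 2 to 3 lower with a batch left out. The GFI1+ IAHC stage comparison (11 higher, 3 lower) gave 24 higher with no filter, 5 higher and 1 lower at 50 CPM or more, 9 higher with TMM and with median-of-ratios factors (Lama4 and Lamb2 lost), 8 with 5 CPM added (Col26a1, Col5a1 and Lamb2 lost), 8 without clusters 6 to 10, 9 without the cell with most reads (Col2a1 and Col3a1 lost), and 8 higher and 2 lower in clusters 0, 1, 3 and 5. Col2a1 was at -0.73 without clusters 6 to 10, -0.20 without the cell with most reads and -1.15 in clusters 0, 1, 3 and 5, where Fn1 was at 0.64. With lengths of the longest transcript, Lama4 took 56.4% of laminin alpha reads in cluster 4, Lama5 44.9% in cluster 2 and Col4a1 64.6% of type IV reads in cluster 1. TMM factors shifted log2 ratios by -0.07 to 0.08.

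No paired analysis was possible because cells carry no replicate numbers shared by embryos, and the ratios come from no test. The comparisons made in GL78 alone have no value with a batch left out, and cells the authors left out have no cluster. The alternatives in clusters 0, 1, 3 and 5 and without cluster 4 were chosen after seeing the data. Stage is bound to plate, populations to pooled AGMs with no cell tied to an embryo, and the levels of summed cells to the makeup of the sort. Counting error of a population's level reached at most 6.86% for members at 10 CPM or more, and for ratios with a narrow spread between batches, as for Nid1, that spread may be no wider than counting error.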
